A study of Mus musculus with 16 samples.

Results

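Gastrocnemius muscle of dystrophin-deficient mdx mice was compared with wild-type gastrocnemius. The comparison took the 2 arrays titled mdx and the 2 arrays titled WT of the first array set, which are 4 of the 16 arrays of the series. The wild-type muscle came from male C57BL/6J mice aged 2 months, and the mdx muscle from male mice aged 2 months labelled C57BL/10J and deficient in dystrophin. Substrain therefore differs wherever genotype does, and the 2 cannot be told apart. No transgene or treatment is labelled for these 4 arrays. Other arrays of the same set hold muscle carrying a Galgt2 transgene (C57BL/6J) and transgenic muscle that also lacks dystrophin (C57BL/10J x C57BL/6J), 2 arrays each, and these serve as a parallel pair of groups below. The fit also used 4 arrays of a later set, mdx muscle given AAV-Galgt2 or PBS (C57BL/10J, 2 arrays each), for its estimate of spread. The age given for the transgenic, transgenic mdx, AAV-Galgt2 and PBS groups is 2 months as well. Each array was made from 25 ng of total RNA that was amplified before hybridisation. The labels do not say that replicates are separate mice, and the spread behind each p-value is that of these samples alone and may be technical.

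Dystrophin links the actin cytoskeleton of the muscle fibre to the sarcoglycans, dystroglycan and the extracellular matrix, and it protects the sarcolemma during contraction. In mdx mice a mutation in Dmd abolishes the full-length protein, and fibres of limb muscle break down in waves from about weaning. Damaged fibres are cleared by macrophages and rebuilt by satellite cells, which divide, differentiate, fuse and pass through embryonic and neonatal sarcomere isoforms before adult ones return. Muscle of this age thus usually holds inflamed, regenerating and intact fibres side by side. In bulk tissue, fewer cells of a type and less RNA per cell cannot be told apart.

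Values below are intensities per probe set, and differences are on the log2 scale, mdx minus wild type, with the standard error of the limma fit and 2 arrays per group. An adjusted p under 0.05 counts as a call, and a gene is said to rise or fall only if called. With 2 arrays against 2, an exact permutation test of a single gene cannot go below a p of 0.333, so every call draws on the variance shared over all genes and over the other muscle arrays. Calls were also recomputed with each array left out, and where a call ended, the log2 difference without that array stands in parentheses. No detection calls were used here, so dim readings may be background. No fold is given where a group's mean log2 intensity is under 5, and differences over such readings are uncertain. Values with 32 added before the log, or as the mean over all probe sets of a gene, are given where they end a call or move a difference by over 1.5 times.

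The arrays fitted their labels in the dystrophin transcript. Dmd had an intensity of 2257 and 2293 on the wild-type arrays and 367 and 281 on the mdx arrays (7.08-fold, log2 difference -2.82 ± 0.20, adjusted p = 0.000475). Both mdx arrays lay far below both wild-type arrays. Of the other 3 Dmd probe sets, the bright one gave 2112 and 2211 against 321 and 136, and the 2 dim ones gave differences of -0.63 and -1.52. Nnt, a mitochondrial transhydrogenase that carries a deletion in C57BL/6J mice, was level at 6656 and 6493 against 6361 and 6428 (-0.04 ± 0.18, adjusted p = 0.94), and its 2 other probe sets gave -0.31 and -0.33. Whether these probe sets respond to the deletion was not tested, so they check nothing about the substrain. Skeletal muscle markers were at the same level in both groups: summed over Ckm, Acta1, Myh4, Mylpf and Tnnt3, intensity was 62666 and 64847 in wild type and 61497 and 63012 in mdx.

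The mdx replicates stood further apart than the wild-type replicates. Over 18194 genes, replicate 1 minus replicate 2 had an SD of 0.607 (log2) in mdx and 0.421 in wild type muscle, with r = 0.977 and 0.989 across genes, and 1718 genes against 492 lay over 2-fold apart. The widest gap toward mdx replicate 2 was in B4galnt2, the gene also called Galgt2 that the transgene carries. It gave 24.5 and 30.6 in wild type and 14.6 and 219.5 in mdx muscle, while its 3 other probe sets stayed between 10.1 and 22.5 on the mdx arrays. In Galgt2 transgenic muscle the same probe set read 9241 and 10193. B4galnt2 was not called over both mdx arrays (1.05 ± 0.91, adjusted p = 0.603) and was called without mdx replicate 1 (3.00, adjusted p = 0.00615). Whether the label or RNA of mdx replicate 2 is mixed with transgenic material was not tested, and values with each array left out are given throughout.

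In mdx muscle 990 of 18194 genes differed from wild type, 5.44% of those tested. Of these, 682 rose (3.75%) and 308 fell (1.69%). The rises were larger than the falls: 623 rises reached 2-fold, 244 reached 4-fold, 49 reached 8-fold and 13 reached 16-fold, whereas 249 falls reached 2-fold, 13 reached 4-fold and 0 reached 8-fold. The rising genes started from a low level, with a median intensity of 89.3 in wild type and 357 in mdx muscle, and the falling genes from a high one, with 890 in wild type and 343 in mdx, against a wild-type median of 121 over all genes. The median difference of all genes was 0.0082. In all 990 called genes the mdx and wild-type arrays did not overlap, which held for 45.3% of all genes tested.

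**Figure D1:**
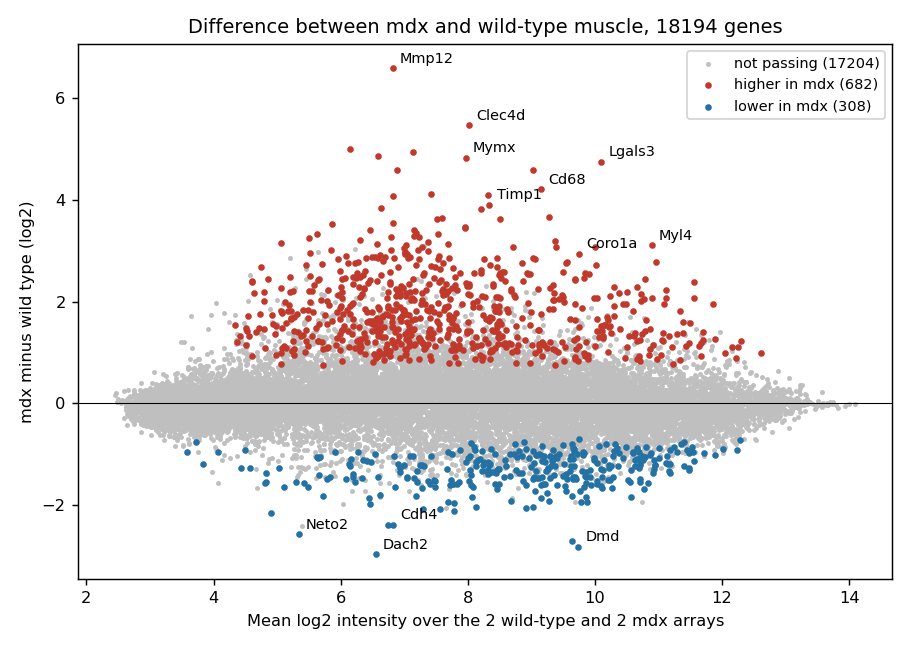
Difference between mdx and wild-type muscle (vertical axis, log2) against mean log2 intensity over the 4 arrays (horizontal axis) for 18194 genes, with the 682 rises in red, the 308 falls in blue and the other genes in grey. The rises reach 6.59 (Mmp12), whereas no fall goes beyond -2.98 (Dach2).

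The balance of rises and falls depended on the scaling and on single arrays. With quantile normalization 571 genes rose and 429 fell, and with array medians over all probe sets set equal 585 rose and 462 fell. With array medians over genes set equal, which moved the median of all genes to -0.28, 540 rose and 1080 fell. Leaving out wild type replicate 1 gave 186 calls, wild type replicate 2 gave 132, mdx replicate 2 gave 495 and each AAV-Galgt2 array gave 649. Without mdx replicate 1 there were 1338 calls, 544 rises and 794 falls. Of 132 genes named by a fixed rule 112 were called. Of these, 31 kept the call under each of the 24 alternatives that included them, 24 as rises and 7 as falls. The filter for brighter genes removed Dach2, Neto2, Cdh4 and B4galnt1, which thus faced 23 alternatives.

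**Figure D2:**
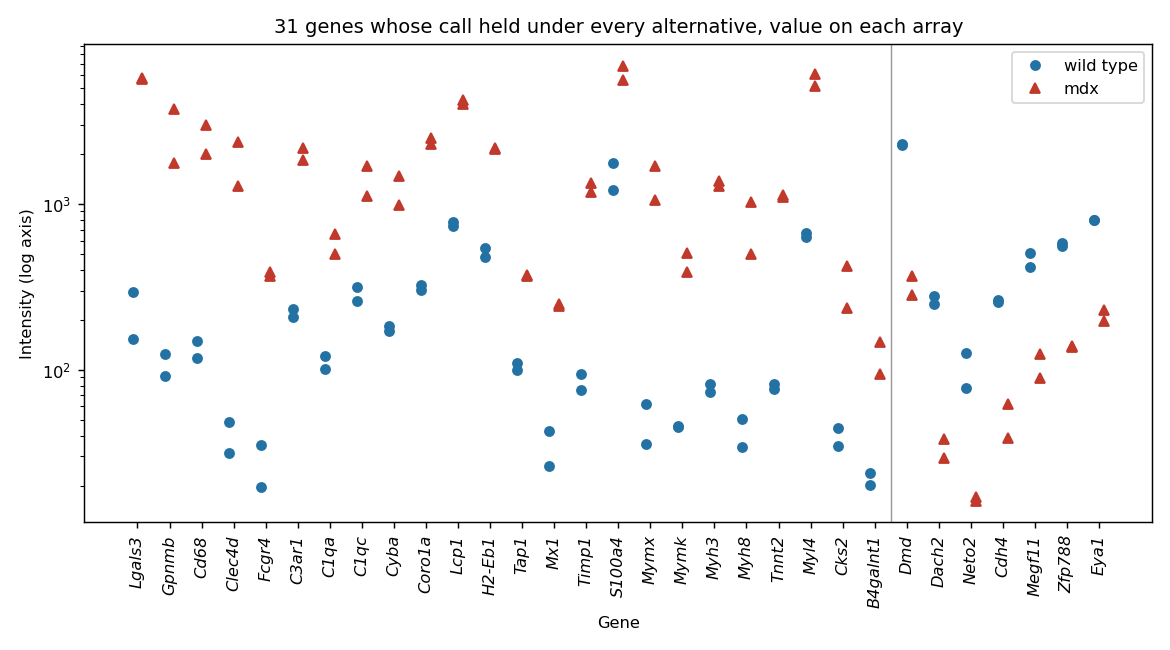
Intensity on each of the 4 arrays (log axis) for the 31 genes whose call held under every alternative that included them. Wild type is shown as blue circles and mdx as red triangles. The 24 genes left of the grey line rose and the 7 genes right of it fell. For none of them do the groups overlap, which holds for 45.3% of all genes tested.

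A second gene of the dystrophin-glycoprotein complex fell. Besides Dmd, Sgcd, the delta-sarcoglycan of the membrane complex, had 301 and 337 on the wild-type and 135 and 126 on the mdx arrays (2.44-fold, log2 difference -1.29 ± 0.22, adjusted p = 0.0107). These 2 were the only calls among 16 measured genes of the complex (12.5% falling, against 1.69% of all genes), whose median difference was -0.26. The summed intensity of the list was 31050 and 33997 in wild type and 26982 and 26905 in mdx muscle. Utrn, the dystrophin relative utrophin, gave -0.22 ± 0.30 (adjusted p = 0.774), Dag1, which encodes dystroglycan, 0.31 ± 0.21 (adjusted p = 0.478), and Nos1, the neuronal nitric oxide synthase tethered by dystrophin, -0.81 ± 0.51 (adjusted p = 0.447). None of these 3 passed. Another Utrn probe set read 422 and 648 in wild type and 1059 and 374 in mdx muscle (0.27), and a dim one gave -0.19. The call of Sgcd ended without wild type replicate 1 for Sgcd (-1.37), without wild type replicate 2 for Sgcd (-1.20).

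Some genes of the membrane and its surroundings rose. Itga5, the fibronectin receptor alpha 5 integrin, was the 1 gene called of 16 laminins and receptors (6.25%, against 3.75% of all genes rising). It read 319 and 272 in wild type and 808 and 908 in mdx muscle (2.90-fold, log2 difference 1.54 ± 0.25, adjusted p = 0.0088). Among 16 genes of membrane repair 3 rose (18.8%, against 3.75% of all genes), and the median of that list was 0.46. They were the annexins Anxa2, Anxa4 and Anxa5, which bind exposed phospholipid in the presence of calcium. Their differences were 1.27 ± 0.31, 1.11 ± 0.24 and 1.14 ± 0.22. B4galnt1, a ganglioside synthase of the same family as B4galnt2, rose from 20.1 and 23.6 to 147 and 94.4 (log2 difference 2.44 ± 0.32, adjusted p = 0.00418). It was the 1 call among 14 glycosyltransferases (7.14%, against 3.75% of all genes rising). B4galnt1 was 1.48 with 32 added and 1.53 as the mean over its probe sets, still called in both. With 1 array left out at a time, calls ended without wild type replicate 1 for Anxa2 (1.06), Anxa4 (1.21) and Anxa5 (1.19), without wild type replicate 2 for Itga5 (1.42), Anxa2 (1.48), Anxa4 (1.00) and Anxa5 (1.10), without mdx replicate 1 for Anxa2 (1.10) and Anxa4 (1.07), without mdx replicate 2 for Anxa2 (1.44), Anxa4 (1.14) and Anxa5 (1.09), and, at an unchanged difference, without at least 1 array of another group for Anxa2 and Anxa4. With the mean over all probe sets of a gene, Itga5 (0.85) and Anxa2 (0.55) were smaller and not called.

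Macrophage genes had the largest share of rises among the 44 lists. Of 33 measured genes 25 rose and 0 fell (75.8% against 3.75% of all genes), with a median of 2.59. Lgals3, galectin-3 of activated macrophages, read 293 and 152 on the wild-type arrays and 5752 and 5636 on the mdx arrays (26.97-fold, log2 difference 4.75 ± 0.43, adjusted p = 0.00159). Cd68, a lysosomal glycoprotein of phagocytes, went from 117 and 148 to 2995 and 1997 (18.5-fold, log2 difference 4.21 ± 0.56, adjusted p = 0.0043). For both genes the lower mdx array stood far above the higher wild-type array. Gpnmb, a glycoprotein of lipid-laden macrophages, read 124 and 91.7 in wild type and 3739.8 and 1776 in mdx muscle (24.2-fold, log2 difference 4.60 ± 0.56, adjusted p = 0.0032). Clec4d, a C-type lectin, read 31.5 and 48.1 in wild type and 2350.1 and 1275 in mdx muscle (44.5-fold, log2 difference 5.47 ± 0.77, adjusted p = 0.00513). Fcgr4, an activating Fc receptor, read 35.3 and 19.6 in wild type and 385 and 368 in mdx muscle (log2 difference 3.84 ± 0.37, adjusted p = 0.00171). These 5 kept their calls under all 24 alternatives.

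The largest difference over the 4 arrays was that of Mmp12, the macrophage elastase, at 11.5 and 11.5 in wild type and 3549 and 346 in mdx muscle (log2 difference 6.59 ± 1.27, adjusted p = 0.0168). Both mdx arrays were high, and mdx replicate 1 was by far the higher one. Without mdx replicate 1 Mmp12 stood at 4.91, below Mymx (5.17), Chil3 (5.15) and Clec4d (5.03), and with 32 added it was 4.74 and not called. Itgax, the CD11c integrin, was also higher on mdx replicate 1, with 25.7 and 22.2 in wild type and 962 and 349 in mdx muscle (log2 difference 4.60 ± 0.87, adjusted p = 0.016). Chil3, a chitinase-like protein of alternatively activated macrophages, read 11.05 and 14.2 in wild type and 361 and 445 in mdx muscle (log2 difference 5.001 ± 0.90, adjusted p = 0.0132). Summed over the 33 genes, intensity was 16934 and 16674 in wild type and 71600 and 56180 in mdx muscle. With wild type replicate 1 or 2 left out the list held 16 and 17 rises, and with mdx replicate 1 or 2 left out it held 21 and 24. With 32 added Chil3 was 3.28 and not called. Calls of single genes ended without wild type replicate 1 for Mmp12 (6.59), Itgax (4.70) and Chil3 (4.82), without wild type replicate 2 for Mmp12 (6.60), Itgax (4.49) and Chil3 (5.18), without mdx replicate 1 for Mmp12 (4.91) and Itgax (3.87), without mdx replicate 2 for Chil3 (4.85).

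Of 25 lysosome and phagocytosis genes 15 rose and 0 fell (60% rising, against 3.75% of all genes), with a median of 1.57. Atp6v0d2, a proton pump subunit of osteoclasts and macrophages, read 19.7 and 16.1 in wild type and 777 and 347 in mdx muscle (log2 difference 4.87 ± 0.69, adjusted p = 0.00513). In all, 4 subunits of the NADPH oxidase, which makes superoxide, were called: Cyba from 170.1 and 183 to 1473 and 979 (6.81-fold, log2 difference 2.77 ± 0.33, adjusted p = 0.003), Cybb by 2.89 ± 0.51, Ncf1 by 2.88 ± 0.43 and Ncf4 by 2.80 ± 0.47. Both mdx arrays exceeded both wild-type arrays for each subunit. Summed list intensity was 26927 and 28952 in wild type and 61088 and 48215 in mdx muscle, and the list held 3, 2, 9 and 13 rises with wild type replicate 1, wild type replicate 2, mdx replicate 1 and mdx replicate 2 left out in turn. As the mean over its probe sets Ncf1 was 1.88, still called. The calls ended without wild type replicate 1 for Cybb (3.23) and Ncf4 (2.74), without wild type replicate 2 for Atp6v0d2 (4.72), Cybb (2.55), Ncf1 (2.76) and Ncf4 (2.85).

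Of 16 measured complement genes 7 rose, 0 fell and 9 did not pass (43.8% rising, against 3.75% of all genes). The median was 1.19. C1qa and C1qc, chains of the C1q molecule that opens the classical pathway, read 101 and 120.2 and 261 and 316 in wild type and 656 and 498 and 1694 and 1116 in mdx muscle, rises of 2.37 ± 0.32 and 2.26 ± 0.30. C3ar1, the receptor for C3a, read 207 and 232 in wild type and 2175 and 1847 in mdx muscle (9.16-fold, log2 difference 3.20 ± 0.40, adjusted p = 0.00343). Itgb2, the beta chain shared by complement receptors and leukocyte integrins, read 50.6 and 53.2 in wild type and 866 and 476 in mdx muscle (12.4-fold, log2 difference 3.63 ± 0.61, adjusted p = 0.0104). The first 3 kept their calls under every alternative. Leaving out either wild-type array left 3 rises in the list, and the call of Itgb2 ended without wild type replicate 1 for Itgb2 (3.59), without wild type replicate 2 for Itgb2 (3.67).

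Chemokines and cytokines followed with 16 rises and 0 falls of 37 measured genes (43.2% rising, against 3.75% of all genes). Their median was 1.46. Il1rn, the antagonist of the interleukin-1 receptor, read 15.3 and 42.6 in wild type and 1232 and 497 in mdx muscle (log2 difference 4.94 ± 1.00, adjusted p = 0.0207). Ccl7, which recruits monocytes, read 15.3 and 27.1 in wild type and 205 and 131 in mdx muscle (log2 difference 3.01 ± 0.70, adjusted p = 0.0355), and Ccl5, which recruits T cells and monocytes, 29.1 and 18.4 in wild type and 137 and 201 in mdx muscle (log2 difference 2.84 ± 0.54, adjusted p = 0.0158). Ccr1, a receptor for several of these ligands, read 13.4 and 20.1 in wild type and 118 and 138 in mdx muscle (log2 difference 2.96 ± 0.56, adjusted p = 0.016). All 4 were dim in wild-type muscle, and the groups did not overlap, which held for 45.3% of all genes tested. The list held 5, 4, 10 and 9 rises with wild type replicate 1, wild type replicate 2, mdx replicate 1 and mdx replicate 2 left out in turn. Il1rn was 3.19 as the mean over its probe sets, still called, and 3.78 with 32 added, not called. With 32 added Ccr1 was 1.72, still called, and Ccl7 1.89 and Ccl5 1.84 were not called. Among single genes the call ended without wild type replicate 1 for Il1rn (4.200), Ccl7 (2.60), Ccl5 (3.17) and Ccr1 (2.67), without wild type replicate 2 for Il1rn (5.67), Ccl7 (3.42), Ccl5 (2.51) and Ccr1 (3.25), without mdx replicate 1 for Il1rn (4.28) and Ccl7 (2.68), without mdx replicate 2 for Ccl7 (3.33), Ccl5 (2.56) and Ccr1 (2.85).

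Of 25 lymphocyte genes 3 rose and 1 fell (12% and 4%, against 3.75% and 1.69% of all genes), with a median of 0.63 over both mdx arrays and 0.07 without mdx replicate 1. Cd3e, a chain of the T cell receptor complex, read 32.2 and 31.7 in wild type and 293 and 107 in mdx muscle (log2 difference 2.47 ± 0.55, adjusted p = 0.0285), Klrd1, the CD94 receptor of natural killer cells, 13.96 and 16.8 in wild type and 98.8 and 54.4 in mdx muscle (log2 difference 2.26 ± 0.37, adjusted p = 0.00976), and Gzma, a protease of cytotoxic cells, 19.04 and 26.5 in wild type and 114 and 56.2 in mdx muscle (log2 difference 1.83 ± 0.39, adjusted p = 0.0248). For all 3 the first mdx array was the higher one. Cd28, a costimulatory receptor of T cells, went the other way, from 413 and 397 to 92.5 and 120.1 (3.84-fold, log2 difference -1.94 ± 0.29, adjusted p = 0.00646). Il7r, a cytokine receptor of lymphocytes outside that list, was among the largest rises, with 19.3 and 39.4 in wild type and 1091 and 202 in mdx muscle (log2 difference 4.09 ± 0.81, adjusted p = 0.0192). With 32 added Klrd1 was 1.17, still called, and Gzma 1.05, not called. The calls ended without wild type replicate 1 for Cd3e (2.48), Klrd1 (2.12), Gzma (1.59), Cd28 (-1.91) and Il7r (3.57), without wild type replicate 2 for Cd3e (2.46), Klrd1 (2.39), Gzma (2.07), Cd28 (-1.97) and Il7r (4.60), without mdx replicate 1 for Cd3e (1.74), Gzma (1.32) and Il7r (2.87), and, at an unchanged difference, without at least 1 array of another group for Cd3e.

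Granulocyte genes gave 2 rises and 0 falls of 22 measured (9.09% rising, against 3.75% of all genes), with a median of 0.52. Csf3r, the receptor for granulocyte colony stimulating factor, rose by 1.54 ± 0.34 and Siglecf, a lectin of eosinophils, by 1.37 ± 0.33. The neutrophil alarmins S100a8 and S100a9 did not pass, at 2.17 ± 1.16 (adjusted p = 0.34) and 1.92 ± 1.22 (adjusted p = 0.445). Their sum with Ngp, Camp and Ltf was 237 and 397 in wild type and 1333 and 806 in mdx muscle. S100a8 read 91.5 and 119 in wild type and 582 and 378 in mdx muscle, and S100a9 76.0 and 191 against 595 and 349. On the transgenic arrays, which enter the spread of the fit, S100a8 read 5504 and 533 and S100a9 3821 and 375. With 32 added Csf3r was 0.60, still called, and Siglecf 0.68, not called. The calls of Csf3r and Siglecf ended without wild type replicate 1 for Csf3r (1.29) and Siglecf (1.40), without wild type replicate 2 for Csf3r (1.80) and Siglecf (1.33), without mdx replicate 1 for Csf3r (1.30) and Siglecf (1.49), without mdx replicate 2 for Csf3r (1.79) and Siglecf (1.25), and, at an unchanged difference, without at least 1 array of another group for Siglecf.

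**Figure D3:**
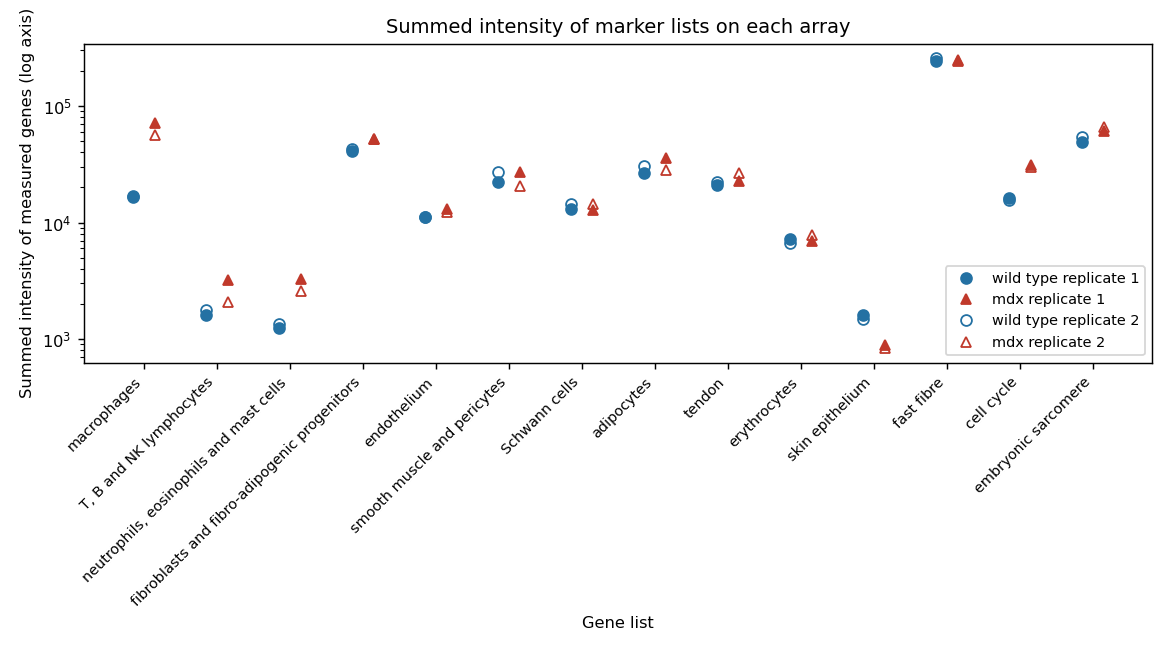
Summed intensity of all measured genes of 14 lists (log axis) on each array, filled symbols for replicate 1 and open symbols for replicate 2, wild type in blue and mdx in red. The macrophage sums of 71600 and 56180 in mdx lie far above the wild-type sums of 16934 and 16674, whereas the fast fibre sums lie between 245268 and 256058 on all 4 arrays.

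Interferon-induced genes rose in part. Of 34 measured 8 rose and 0 fell, with a median of 0.85, and 32 of 34 differences were positive against 9238 of 18194 over all genes. Mx1, an antiviral GTPase, read 26.2 and 42.5 in wild type and 248 and 242 in mdx muscle (7.34-fold, log2 difference 2.88 ± 0.40, adjusted p = 0.00513) and kept its call under every alternative. Oas1a and Oas3, which make the 2-5A messenger that activates RNase L, read 61.2 and 90.00 and 26.8 and 23.03 in wild type and 306 and 469 and 239 and 143 in mdx muscle, rises of 2.35 ± 0.34 and 2.89 ± 0.57. Irf8, a transcription factor of myeloid cells, rose by 2.21 ± 0.42. The calls ended without wild type replicate 1 for Oas1a (2.07), Oas3 (3.00) and Irf8 (2.23), without wild type replicate 2 for Oas3 (2.78) and Irf8 (2.19), without mdx replicate 1 for Oas3 (2.52), without mdx replicate 2 for Irf8 (2.31).

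The promoters of 3 of the called interferon genes are shown because they carry the response element bound by the factors that interferon activates. The element was searched as GAAA, any 2 bases, GAAA on both strands of the window from 250 bases before to 50 bases after the start of each gene, in RefSeq sequences of GRCm38.p6. It lay in the window of 3 of the 6 called interferon genes with a promoter entry, in 15 of 26 measured genes of the list, and in 3.63% of 14453 genes tested. The printed stretches of 120 bases lie upstream of the start, with the element in capitals, which reads TTTC, 2 bases, TTTC where it lies on the other strand. They are chr5:120907526-120907645 on the minus strand, chr5:120777660-120777779 on the minus strand and chr10:128270266-128270385 on the plus strand, written 5′ to 3′ along the gene. In Oas1a overlapping matches merge into 1 longer run. Stat2, a transcription factor of interferon signalling, was added after its value was seen: it rose from 73.5 and 63.7 to 139 and 138 (2.02-fold, log2 difference 1.02 ± 0.25, adjusted p = 0.0439), and its call ended without wild type replicate 1 for Stat2 (1.12), without wild type replicate 2 for Stat2 (0.91), without mdx replicate 1 for Stat2 (1.01), without mdx replicate 2 for Stat2 (1.03), and, at an unchanged difference, without at least 1 array of another group for Stat2. A match describes these letters and not binding.
Oas1a: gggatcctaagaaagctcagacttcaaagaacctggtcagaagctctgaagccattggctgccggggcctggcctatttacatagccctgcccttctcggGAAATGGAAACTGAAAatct
Oas3: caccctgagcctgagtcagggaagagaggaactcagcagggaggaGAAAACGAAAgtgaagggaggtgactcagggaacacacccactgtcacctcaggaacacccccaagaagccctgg
Stat2: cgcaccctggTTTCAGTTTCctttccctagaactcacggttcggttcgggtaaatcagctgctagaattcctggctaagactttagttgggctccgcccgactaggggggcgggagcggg

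Of 17 measured antigen presentation genes 11 rose and 0 fell (64.7% rising, against 3.75% of all genes), with a median of 1.38. H2-Eb1, a class II beta chain, read 544 and 479.8 in wild type and 2159 and 2136 in mdx muscle (4.20-fold, log2 difference 2.07 ± 0.22, adjusted p = 0.00239), and Tap1, which pumps peptides to class I molecules, 99.8 and 109 in wild type and 369 and 372 in mdx muscle (3.55-fold, log2 difference 1.83 ± 0.21, adjusted p = 0.003). Both kept their calls under every alternative. H2-Ab1, the other class II beta chain, rose by 2.15 ± 0.39, and H2-DMa, which loads peptide on class II, by 2.09 ± 0.36. Tap1 was 0.59 as the mean over its probe sets, still called. The interferon element was in the window of 0 of the 8 called genes of this list that had a promoter entry. With 1 array removed the calls ended without wild type replicate 1 for H2-DMa (2.25), without wild type replicate 2 for H2-Ab1 (1.79) and H2-DMa (1.93), without mdx replicate 2 for H2-Ab1 (1.79) and H2-DMa (1.62).

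Of 18 myoblast fusion genes 3 rose (16.7%, against 3.75% of all genes). Mymk and Mymx encode myomaker and myomixer, the membrane proteins that let myoblasts fuse. Mymx read 61.9 and 35.6 in wild type and 1056 and 1693 in mdx muscle (28.5-fold, log2 difference 4.83 ± 0.60, adjusted p = 0.00343). Mymk read 44.98 and 45.6 in wild type and 388 and 508 in mdx muscle (9.80-fold, log2 difference 3.29 ± 0.32, adjusted p = 0.00171). Both were dim on both wild-type arrays and far brighter on both mdx arrays, and both kept their calls under every alternative. Adam12, a protease of differentiating myoblasts and of fibroblastic cells, read 87.6 and 77.7 in wild type and 535 and 362 in mdx muscle (5.34-fold, log2 difference 2.42 ± 0.50, adjusted p = 0.0233). The list had 0 falls and a median of 0.79. The call of Adam12 ended without wild type replicate 1 for Adam12 (2.50), without wild type replicate 2 for Adam12 (2.33), without mdx replicate 1 for Adam12 (2.14), without mdx replicate 2 for Adam12 (2.70).

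Of 32 satellite cell and myogenic regulator genes 3 rose and 2 fell (9.38% and 6.25%, against 3.75% and 1.69% of all genes), with a median of 0.30. Myog, myogenin, which drives terminal differentiation, read 934 and 567 in wild type and 2916 and 2712 in mdx muscle (3.87-fold, log2 difference 1.95 ± 0.46, adjusted p = 0.0374). Myod1, the determination factor, read 731 and 571 in wild type and 1311 and 1944 in mdx muscle without a call (1.31 ± 0.38, adjusted p = 0.0732), and Pax7, which marks satellite cells, 288 and 216 in wild type and 299 and 614 in mdx muscle (0.78 ± 0.35, adjusted p = 0.246). Neither of these 2 overlapped between groups, which held for 45.3% of all genes tested (23.7% with mdx higher). The first mdx array of Pax7 lay close to wild type. Id2, an inhibitor of basic helix-loop-helix factors, rose by 1.67 ± 0.31, and Cxcr4, a chemokine receptor of satellite cells and leukocytes, by 2.07 ± 0.31. Eya1, a transcriptional coactivator of fast fibres, fell from 802 and 800.2 to 228 and 197 (3.78-fold, log2 difference -1.92 ± 0.18, adjusted p = 0.00171) under every alternative. Eya1 was -1.21 as the mean over its probe sets. Its relative Eya4, named after its value was seen, also fell (-1.43 ± 0.33, adjusted p = 0.034). For the others the call ended without wild type replicate 1 for Myog (2.31), Id2 (1.60) and Eya4 (-1.39), without wild type replicate 2 for Myog (1.59), Id2 (1.73), Cxcr4 (2.01) and Eya4 (-1.47), without mdx replicate 1 for Myog (1.90), without mdx replicate 2 for Myog (2.00) and Eya4 (-0.87), and, at an unchanged difference, without at least 1 array of another group for Myog and Eya4.

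Some sarcomere genes of development rose strongly. Myh3, the embryonic myosin heavy chain, read 73.1 and 82.2 on the wild-type arrays and 1278 and 1373 on the mdx arrays (17.1-fold, log2 difference 4.10 ± 0.53, adjusted p = 0.00402). Myh8, the neonatal chain, read 34.1 and 50.1 in wild type and 1024 and 498 in mdx muscle (17.3-fold, log2 difference 4.11 ± 0.40, adjusted p = 0.00171). Tnnt2, the troponin T of heart and embryonic skeletal muscle, read 81.9 and 75.99 in wild type and 1095 and 1130.5 in mdx muscle (14.1-fold, log2 difference 3.82 ± 0.43, adjusted p = 0.00256). Myl4, the embryonic and atrial light chain, read 664 and 632 in wild type and 6059 and 5139 in mdx muscle (8.61-fold, log2 difference 3.11 ± 0.37, adjusted p = 0.003). For all 4 genes both mdx arrays stood far above both wild-type arrays, and the calls held under every alternative. Myl4 was 1.64 as the mean over its probe sets. Of 18 developmental sarcomere genes 6 rose and 0 fell (33.3% rising, against 3.75% of all genes). The list median of 0.23 fell to -0.05 with array medians over genes set equal and stayed at 0.23 relative to the median of all genes.

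The Tnnt2 promoter is shown for its M-CAT element, the site of TEAD factors in muscle genes, searched as CATTCC on both strands and printed in capitals. It is chr1:135836214-135836333 on the plus strand, in RefSeq sequence of GRCm38.p6. The 6 letters were found in 2 of 6 called developmental sarcomere genes and in 6 of 16 measured genes of that list with an entry. Over all genes with an entry the share was 15.3%.
Tnnt2: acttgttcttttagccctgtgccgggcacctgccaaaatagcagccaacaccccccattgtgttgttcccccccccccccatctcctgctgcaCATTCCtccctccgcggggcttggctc

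Of 22 fast fibre genes 0 rose and 0 fell, with a median of -0.02, and the differences of smallest p were those of the triad junction gene Jph1 (-0.31 ± 0.19, adjusted p = 0.416) and the Z-disc gene Myoz3 (-0.28 ± 0.21, adjusted p = 0.527). Of 16 slow fibre genes 4 rose and 0 fell (25.0% against 3.75% of all genes rising), with a median of 0.065. Sln, sarcolipin, which inhibits the calcium pump, read 268 and 78.1 in wild type and 1185 and 1247 in mdx muscle (8.40-fold, log2 difference 3.07 ± 0.52, adjusted p = 0.0107). Casq2, the slow and cardiac calsequestrin, read 1814 and 1162 in wild type and 3081 and 4312 in mdx muscle (2.51-fold, log2 difference 1.33 ± 0.28, adjusted p = 0.0242). Tnni1, slow troponin I, and Fhl2 rose by 1.13 ± 0.29 and 0.98 ± 0.24. The slow myosin Myh7 gave -0.25 ± 0.39 (adjusted p = 0.811), and the slow fibre median turned to -0.22 and -0.02 with array medians set equal over genes and over all probe sets. As the mean over its probe sets Sln was 2.04, still called. Among these genes calls ended without wild type replicate 1 for Tnni1 (1.25) and Fhl2 (0.82), without wild type replicate 2 for Sln (2.18), Casq2 (1.01), Tnni1 (1.02) and Fhl2 (1.14), without mdx replicate 1 for Fhl2 (0.64), without mdx replicate 2 for Casq2 (1.09) and Tnni1 (0.72), and, at an unchanged difference, without at least 1 array of another group for Tnni1 and Fhl2.

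Of 5 measured muscle acetylcholine receptor subunits 2 rose. Chrna1, the alpha subunit, read 291 and 329 in wild type and 1419 and 1362 in mdx muscle (4.49-fold, log2 difference 2.17 ± 0.38, adjusted p = 0.0124). Chrng, the gamma subunit of the fetal receptor, read 52.8 and 89.2 in wild type and 206 and 276 in mdx muscle (3.47-fold, log2 difference 1.79 ± 0.34, adjusted p = 0.016). The subunits Chrnb1 (0.56 ± 0.22), Chrnd (0.72 ± 0.31) and Chrne (0.14 ± 0.31) did not pass and are named after their values were seen. Chrna1 and Chrng were the 2 calls among 17 neuromuscular junction genes (11.8%, against 3.75% of all genes rising), and the list median was 0.53. Their promoters are shown because both hold E-boxes of the form CAGCTG that myogenic factors recognise, in capitals. The stretches are chr2:73580339-73580458 on the minus strand and chr1:87205669-87205788 on the plus strand, in RefSeq sequence of GRCm38.p6. This palindrome was in the window of 6 of 10 junction genes with an entry and of 18.8% of all 14453 genes. As the mean over its probe sets Chrng was 0.98, still called. With 1 array left out, calls ended without wild type replicate 1 for Chrna1 (2.08) and Chrng (1.42), without wild type replicate 2 for Chrna1 (2.26), without mdx replicate 2 for Chrna1 (2.20) and Chrng (1.58).
Chrna1: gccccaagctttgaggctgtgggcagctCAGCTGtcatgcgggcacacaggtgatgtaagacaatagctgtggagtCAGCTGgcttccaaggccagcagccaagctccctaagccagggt
Chrng: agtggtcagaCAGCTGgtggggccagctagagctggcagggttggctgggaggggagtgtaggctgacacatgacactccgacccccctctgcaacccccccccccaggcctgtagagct

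Many cell cycle genes rose. Of 48 measured genes 20 rose and 0 fell (41.7% against 3.75% of all genes), with a median of 1.12. Cks2, a subunit of cyclin-dependent kinases, read 34.6 and 44.3 in wild type and 422 and 237 in mdx muscle (8.08-fold, log2 difference 3.01 ± 0.41, adjusted p = 0.0046) and kept its call under every alternative. Birc5, survivin of the chromosomal passenger complex, read 61.9 and 78.00 in wild type and 658 and 569.8 in mdx muscle (8.81-fold, log2 difference 3.14 ± 0.47, adjusted p = 0.00627). Prc1, a bundler of the central spindle, read 84.5 and 88.4 in wild type and 539 and 550.5 in mdx muscle (6.30-fold, log2 difference 2.66 ± 0.40, adjusted p = 0.0065), and Cdca3, which triggers mitotic entry, 52.2 and 46.5 in wild type and 351 and 364 in mdx muscle (7.25-fold, log2 difference 2.86 ± 0.45, adjusted p = 0.00758). All 4 were dim on both wild-type arrays and several-fold brighter on both mdx arrays. Which cells divided is not resolved in bulk RNA. The list held 1, 5, 12 and 10 rises with wild type replicate 1, wild type replicate 2, mdx replicate 1 and mdx replicate 2 left out in turn. As the mean over its probe sets Cdca3 was 1.01, still called. Single calls ended without wild type replicate 1 for Birc5 (2.97), Prc1 (2.62) and Cdca3 (2.94), without wild type replicate 2 for Prc1 (2.69) and Cdca3 (2.78).

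Mitotic promoters are shown because many carry a CCAAT box and a cell cycle homology region, the pair through which NF-Y and the DREAM and MuvB complexes act on them. The region was searched as TTTGAA and the box as CCAAT, each on both strands. TTTGAA lay in 10 of 17 called cell cycle genes with a promoter entry and in 15.7% of all genes, and CCAAT in 15 of 17 and in 42.0%. Over all measured cell cycle genes the counts were 18 and 31 of 38. Printed are Prc1 and, chosen after their values were seen, Cdk1, the mitotic kinase, which rose by 2.35 ± 0.40, and Top2a, topoisomerase II alpha, which rose by 2.15 ± 0.45. Their positions are chr7:80294356-80294475 on the plus strand, chr10:69352913-69353032 on the minus strand and chr11:99024190-99024309 on the minus strand, in RefSeq sequence of GRCm38.p6, with both motifs in capitals, reading TTCAAA and ATTGG on the other strand. The calls of the latter 2 ended without wild type replicate 1 for Cdk1 (2.16) and Top2a (1.89), without wild type replicate 2 for Cdk1 (2.55) and Top2a (2.42), without mdx replicate 1 for Top2a (2.03), without mdx replicate 2 for Top2a (2.27).
Prc1: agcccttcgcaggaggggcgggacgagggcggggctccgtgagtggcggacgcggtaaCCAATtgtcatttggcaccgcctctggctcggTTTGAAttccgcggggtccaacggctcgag
Cdk1: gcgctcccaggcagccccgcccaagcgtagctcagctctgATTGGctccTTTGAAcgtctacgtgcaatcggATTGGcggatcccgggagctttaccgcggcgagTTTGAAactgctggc
Top2a: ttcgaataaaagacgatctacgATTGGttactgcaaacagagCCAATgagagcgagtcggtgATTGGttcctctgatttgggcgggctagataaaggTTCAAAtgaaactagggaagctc

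Of 25 matrix protease genes 11 rose and 0 fell (44% rising, against 3.75% of all genes), with a median of 1.05. Timp1, the tissue inhibitor of metalloproteinases, read 94.02 and 74.8 in wild type and 1333 and 1179.7 in mdx muscle (14.95-fold, log2 difference 3.90 ± 0.48, adjusted p = 0.00326) and kept its call under every alternative. Adam8, a protease of leukocytes, read 57.1 and 60.6 in wild type and 589 and 374 in mdx muscle (7.97-fold, log2 difference 2.99 ± 0.58, adjusted p = 0.017), and Mmp19 472 and 331 in wild type and 2901 and 1833 in mdx muscle (5.83-fold, log2 difference 2.54 ± 0.58, adjusted p = 0.0314). Of 36 collagens and matrix genes 5 rose and 0 fell (13.9% rising, against 3.75% of all genes), with a median of 0.58. They included Loxl1, a crosslinker of elastin, with 1.44 ± 0.33, Col18a1 with 1.18 ± 0.21, Fn1, fibronectin, with 1.12 ± 0.25, and Col14a1 with 1.07 ± 0.23. The difference between the 2 lists was not tested. S100a4, a calcium-binding protein of fibroblasts and leukocytes, went from 1772 and 1209 to 6809 and 5600.2 (4.22-fold, log2 difference 2.08 ± 0.25, adjusted p = 0.00309) under every alternative. Without wild type replicate 1, wild type replicate 2, mdx replicate 1 and mdx replicate 2 the protease list held 2, 1, 3 and 7 rises and the collagen list 1, 0, 1 and 1. Single calls ended without wild type replicate 1 for Adam8 (2.95), Mmp19 (2.80), Loxl1 (1.41), Fn1 (1.02) and Col14a1 (1.22), without wild type replicate 2 for Adam8 (3.04), Mmp19 (2.29), Loxl1 (1.47), Col18a1 (1.00), Fn1 (1.22) and Col14a1 (0.92), without mdx replicate 1 for Adam8 (2.67), Mmp19 (2.21), Loxl1 (1.13), Fn1 (0.94) and Col14a1 (0.92), without mdx replicate 2 for Mmp19 (2.87), Loxl1 (1.75), Col18a1 (1.08), Fn1 (1.29) and Col14a1 (1.21), and, at an unchanged difference, without at least 1 array of another group for Mmp19, Loxl1 and Fn1.

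Of 26 genes in a list of the cytoskeleton of growing cells 9 rose, 1 fell and 16 did not pass. That is 34.6% rising and 3.85% falling, against 3.75% and 1.69% of all genes. The list median was 0.84. Coro1a, a coronin of leukocytes, read 302 and 322 in wild type and 2492 and 2302 in mdx muscle (7.68-fold, log2 difference 2.94 ± 0.38, adjusted p = 0.00402). Lcp1, the leukocyte plastin, read 779 and 735 in wild type and 4223 and 3984 in mdx muscle (5.42-fold, log2 difference 2.44 ± 0.33, adjusted p = 0.00478). Both kept their calls under every alternative. Capg, an actin capper of macrophages, rose by 2.45 ± 0.37 and Tubb6, a tubulin raised in regenerating fibres, by 2.45 ± 0.34. Capg was not called without wild type replicate 2 (2.45). As means over probe sets Tubb6 was 1.43 and not called, and Capg 1.49 and Igf2 1.496 were still called. Igf2, a growth factor of differentiating myoblasts, was the 1 rise among 24 growth factor genes, with 582 and 558 in wild type and 3848 and 1991 in mdx muscle (4.86-fold, log2 difference 2.28 ± 0.40, adjusted p = 0.0119), and its call ended without wild type replicate 1 for Igf2 (2.31), without wild type replicate 2 for Igf2 (2.25). Fgf7, a growth factor made by fibroblasts, was the 1 fall of the growth factor list (-1.03 ± 0.26, adjusted p = 0.0471). The rise of Igf2 and the fall of Fgf7 were each 4.17% of the list, against 3.75% of all genes rising and 1.69% falling. The call of Fgf7 ended without wild type replicate 1 (-1.19), wild type replicate 2 (-0.88) or mdx replicate 2 (-0.75). At an unchanged difference it also ended without at least 1 array of another group.

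Genes of oxidative phosphorylation and the tricarboxylic acid cycle were close to level. Of 35 oxidative phosphorylation genes 0 were called, with a median of -0.042, and of 22 genes of the tricarboxylic acid cycle 0, with a median of -0.033. The smallest p among the former was that of Ppargc1a, the coactivator of mitochondrial biogenesis, at -0.86 ± 0.27 (adjusted p = 0.0923), which was called with array medians over genes set equal (-1.15, adjusted p = 0.0352). At an unadjusted p under 0.05 there were 2 oxidative phosphorylation, 1 tricarboxylic acid cycle and 0 fast fibre genes, against 3704 of 18194 over all genes. At that threshold there were also 9 of 32 glycolysis and glycogen genes and 5 of 28 fatty acid genes. Of 32 glycolysis and glycogen genes 2 rose and 2 fell (6.25% each, against 3.75% and 1.69% of all genes). Hk1, a hexokinase of many tissues, rose by 1.45 ± 0.35, Aldoc, aldolase C, by 1.15 ± 0.25, while Ppp1r1a, a phosphatase inhibitor, and Phkb, a phosphorylase kinase subunit, gave -1.72 ± 0.35 and -0.99 ± 0.25. Angptl4, which inhibits lipoprotein lipase, was the 1 rise among 28 fatty acid genes (3.57%, against 3.75% of all genes). It read 119 and 191 in wild type and 884 and 848 in mdx muscle (5.74-fold, log2 difference 2.52 ± 0.40, adjusted p = 0.00821). Aldoc was 0.48 with 32 added, still called, and 0.47 as the mean over its probe sets, not called. Metabolic calls ended without wild type replicate 1 for Hk1 (1.48), Aldoc (0.93), Ppp1r1a (-1.95), Phkb (-0.96) and Angptl4 (2.18), without wild type replicate 2 for Hk1 (1.42), Aldoc (1.37), Ppp1r1a (-1.50) and Phkb (-1.02), without mdx replicate 1 for Ppp1r1a (-1.19) and Phkb (-0.89), without mdx replicate 2 for Hk1 (1.18), Aldoc (0.95) and Phkb (-1.09), and, at an unchanged difference, without at least 1 array of another group for Phkb.

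**Figure D4:**
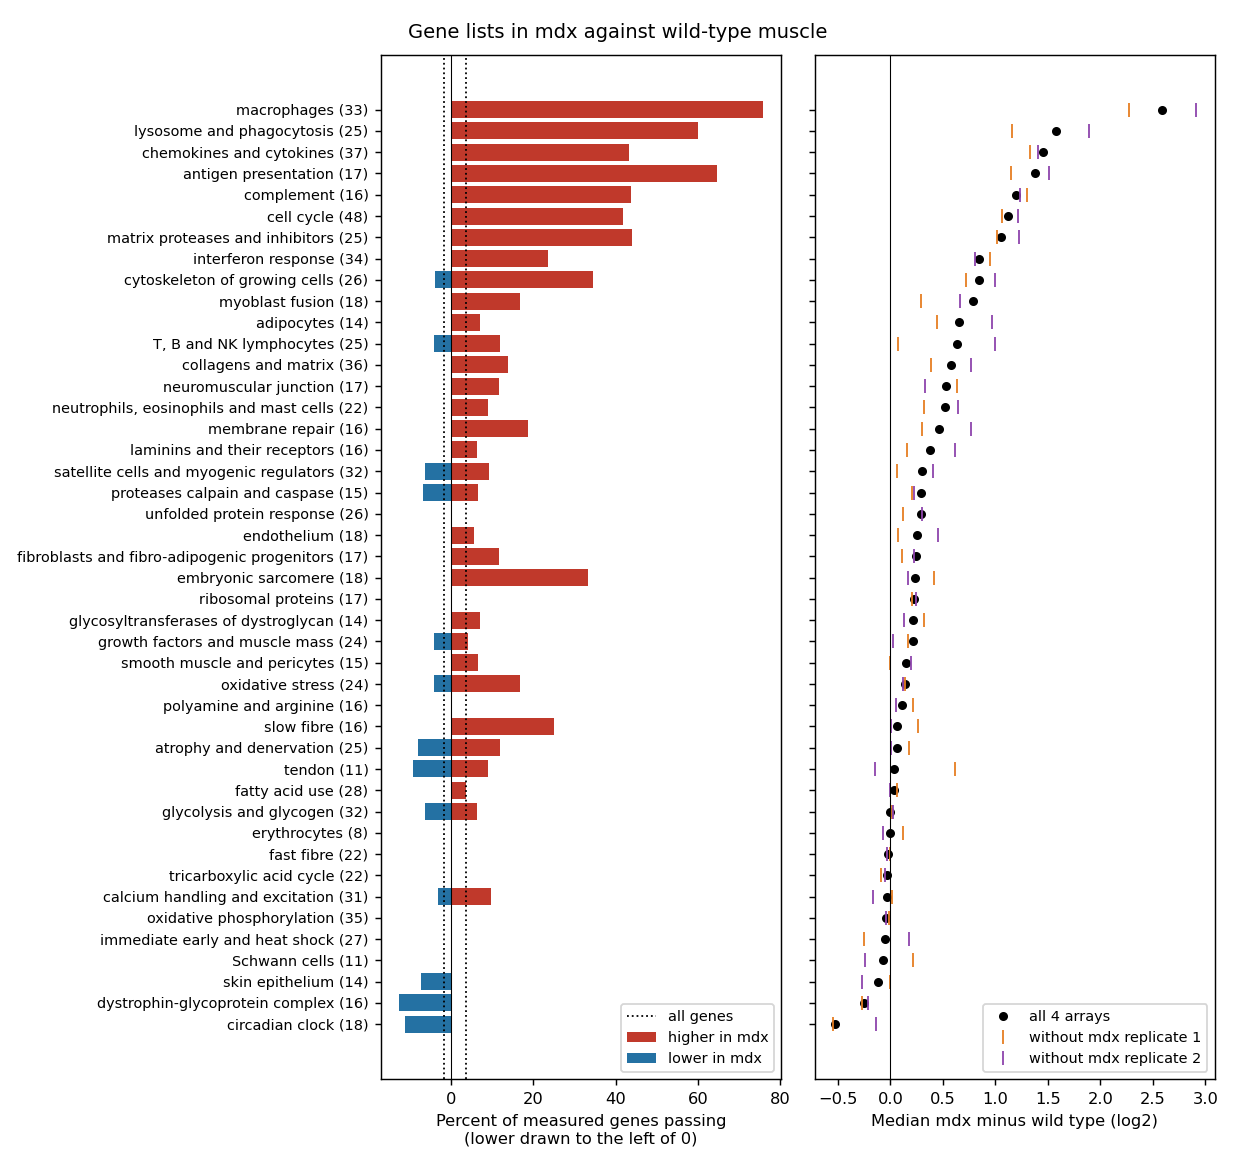
For each of 44 gene lists (number of measured genes in brackets), the percentage of measured genes that rose (red) or fell (blue, drawn left of 0) with the shares over all genes as dotted lines, and at right the median difference over 4 arrays (black) and with either mdx array left out (bars). Macrophage genes lead with 75.8% rising and a median of 2.59, fast fibre and oxidative phosphorylation genes have no call, and the lymphocyte median drops to 0.07 without mdx replicate 1.

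The falls of largest size included transcription factors, channels and adhesion molecules. Dach2, a transcriptional corepressor that restrains myogenin in innervated muscle, read 278 and 250.2 in wild type and 38.3 and 29.3 in mdx muscle (7.89-fold, log2 difference -2.98 ± 0.41, adjusted p = 0.0046), and its other probe set gave -2.95. Neto2, an auxiliary subunit of kainate receptors, read 127 and 77.7 in wild type and 16.2 and 16.96 in mdx muscle (log2 difference -2.58 ± 0.29, adjusted p = 0.00256). Cdh4, a cadherin, read 256 and 262 in wild type and 38.7 and 62.4 in mdx muscle (5.27-fold, log2 difference -2.40 ± 0.29, adjusted p = 0.00301). Megf11, a transmembrane receptor, read 506 and 413 in wild type and 125 and 89.3 in mdx muscle (4.33-fold, log2 difference -2.11 ± 0.25, adjusted p = 0.003), and Zfp788, a zinc finger gene, 556 and 582 in wild type and 138 and 138 in mdx muscle (4.13-fold, log2 difference -2.04 ± 0.27, adjusted p = 0.00418). The mdx arrays were low together in each of these 5 genes, and the calls held under every alternative that included them. Dach2, Neto2 and Cdh4 were too dim for the brighter-gene filter. As means over probe sets Neto2 was -1.19 and Cdh4 -1.32, and Neto2 was -1.44 with 32 added.

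Rmdn1, a microtubule-associated protein of mitochondria, had 2070.1 and 1998 against 415 and 234 (6.53-fold, log2 difference -2.71 ± 0.31, adjusted p = 0.00256). All 6 of its probe sets were lower in mdx muscle, from -0.87 to -2.79, and among the 24 alternatives its call ended only with the probe set brightest over the 4 arrays (-0.87). Kcnab1, a subunit of potassium channels, gave -2.40 ± 0.39, Kbtbd8, an adaptor of a ubiquitin ligase, -2.08 ± 0.42, and Mfap3l, a membrane protein, -2.04 ± 0.33. A further 4 genes of the 15 largest falls, Mucl1, Gm4274, Ccdc73 and Tafa4, had -2.16 ± 0.40, -2.08 ± 0.37, -2.07 ± 0.32 and -1.99 ± 0.49. As means over probe sets Kcnab1 was -1.31, still called, and Mfap3l -0.87, not called, and with 32 added Mucl1 was -1.04 and not called. Their calls ended without wild type replicate 1 for Kcnab1 (-2.17), Kbtbd8 (-2.06), Mfap3l (-1.79), Mucl1 (-1.94), Gm4274 (-2.10), Ccdc73 (-2.11) and Tafa4 (-1.60), without wild type replicate 2 for Kcnab1 (-2.62), Kbtbd8 (-2.10), Mucl1 (-2.38), Gm4274 (-2.06), Ccdc73 (-2.04) and Tafa4 (-2.38), without mdx replicate 1 for Tafa4 (-1.05), without mdx replicate 2 for Kbtbd8 (-1.61) and Mucl1 (-1.88), and, at an unchanged difference, without at least 1 array of another group for Tafa4.

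Of 18 circadian clock genes 2 fell and 0 rose (11.1% falling, against 1.69% of all genes). The median was -0.53, and 4 of 18 differences were positive. Hlf, a transcription factor of the clock output, read 425 and 449 in wild type and 126 and 98.6 in mdx muscle (3.93-fold, log2 difference -1.97 ± 0.31, adjusted p = 0.00758), and Rora, a nuclear receptor that drives Arntl, 3289 and 2915 in wild type and 1729.7 and 825 in mdx muscle (2.59-fold, log2 difference -1.37 ± 0.31, adjusted p = 0.0297). The labels give no time of day. Without mdx replicate 1 the list had 6 falls, and without mdx replicate 2 its median was -0.14. Both calls depended on single arrays and ended without wild type replicate 1 for Hlf (-2.01) and Rora (-1.29), without wild type replicate 2 for Hlf (-1.93) and Rora (-1.46), without mdx replicate 2 for Rora (-0.84), and, at an unchanged difference, without at least 1 array of another group for Rora.

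Some stress genes were called. Sod3, the extracellular superoxide dismutase, rose from 104 and 86.8 to 303 and 302 (3.19-fold, log2 difference 1.67 ± 0.24, adjusted p = 0.00515), and Gclm, a subunit of the glutathione-synthesising ligase, fell from 564 and 549 to 249 and 203 (2.48-fold, log2 difference -1.31 ± 0.24, adjusted p = 0.0132). Together with Gpx1, Cyba and Cybb, 4 of 24 oxidative stress genes rose (16.7%) and 1 fell (4.17%), against 3.75% and 1.69% of all genes. Of 26 unfolded protein response genes and 27 immediate early and heat shock genes 0 were called, with medians of 0.29 and -0.056 and with 5 and 3 at an unadjusted p under 0.05. Nearest to a call were Sdf2l1 of the endoplasmic reticulum (1.53 ± 0.49, adjusted p = 0.102) and the immediate early factor Myc (1.48 ± 0.57, adjusted p = 0.17). Members of 3 lists outside these were also called. Mt2, a metallothionein, was called at 2.07 ± 0.42 in the atrophy and denervation list. Of its 25 genes 3 rose and 2 fell (12% and 8%, against 3.75% and 1.69% of all genes), with a median of 0.065. Bid, a proapoptotic factor, was called at 2.18 ± 0.32, and Cast, the inhibitor of calpains, at -0.96 ± 0.19. They were the 1 rise and 1 fall of 15 calpain and caspase genes (6.67% each). Trpv2, a stretch-sensitive calcium channel, and Kcnma1, a calcium-activated potassium channel, gave 1.32 ± 0.34 and -0.95 ± 0.22, both called. Of 31 calcium handling and excitation genes 3 rose and 1 fell (9.68% and 3.23%), with a median of -0.036. With the mean over probe sets Gclm was -0.81 and Bid 0.84, and with 32 added Bid was 1.45 and Trpv2 0.79, all still called. Among the called genes given here with values, calls ended without wild type replicate 1 for Gclm (-1.29), Mt2 (1.44), Cast (-0.93), Trpv2 (1.14) and Kcnma1 (-0.97). Without wild type replicate 2 they ended for Sod3 (1.55), Gclm (-1.33), Bid (2.04), Cast (-0.98), Trpv2 (1.51) and Kcnma1 (-0.93). Without mdx replicate 1 they ended for Mt2 (1.93), Trpv2 (1.10) and Kcnma1 (-0.90). Without mdx replicate 2 they ended for Gclm (-1.16), Mt2 (2.21), Cast (-0.80), Trpv2 (1.55) and Kcnma1 (-1.002). At an unchanged difference they ended without at least 1 array of another group for Trpv2 and Kcnma1.

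Lists of other cell types in the tissue held 0 to 2 calls each. Endothelial, pericyte and adipocyte lists had 1 rise each, of 18, 15 and 14 genes (5.56%, 6.67% and 7.14%, against 3.75% of all genes), which were Aplnr (1.64 ± 0.41), Cspg4 (0.86 ± 0.22) and Cebpa (1.91 ± 0.28). Their medians were 0.26, 0.14 and 0.65. The first 2 medians turned to -0.03 and -0.14 with array medians over genes set equal. Hic1, a marker of mesenchymal progenitors, rose by 1.46 ± 0.29, 1 of 2 rises among 17 fibroblast genes (11.8%). In tendon genes Cilp rose by 1.49 ± 0.23 and Mkx fell (-1.47 ± 0.35), of 11 measured (9.09% each, against 3.75% and 1.69% of all genes). The skin keratins Krt5, Krt14, Krt10 and Krt1 with Lor summed to 285 and 291 in wild type and 239 and 190 in mdx muscle, and the brightest probe set of Trp63 of the epidermis fell (-1.16 ± 0.27). Another bright Trp63 probe set gave 0.22, and the mean over probe sets was -0.31 and not called. Cspg4 was 0.46 as the mean over its probe sets and not called. Among genes named above and here, the call also ended with 32 added in Il7r (3.08), Tafa4 (-1.38), Anxa2 (1.26), Cd3e (1.73), Myog (1.90), Tnni1 (1.09), Mmp19 (2.45), Fgf7 (-0.83), Aplnr (1.61) and Mkx (-1.39). It ended as the mean over probe sets in Anxa4 (1.12), Col14a1 (0.74), Mmp19 (2.06), Fgf7 (-0.71) and Kcnma1 (-0.81). No Schwann cell (11 measured) or erythrocyte gene (8) was called, with 1 and 0 at an unadjusted p under 0.05. The part of these cells in the results above was not tested. Calls ended without wild type replicate 1 for Aplnr (1.67), Cspg4 (0.76), Cebpa (1.63), Hic1 (1.53), Mkx (-1.88) and Trp63 (-1.35), without wild type replicate 2 for Aplnr (1.61), Cspg4 (0.96), Hic1 (1.40), Cilp (1.27), Mkx (-1.07) and Trp63 (-0.96), without mdx replicate 1 for Aplnr (1.48), Cspg4 (0.84) and Mkx (-1.57), without mdx replicate 2 for Aplnr (1.80), Cspg4 (0.88), Hic1 (1.12), Mkx (-1.37) and Trp63 (-0.85), and, at an unchanged difference, without at least 1 array of another group for Aplnr, Cspg4 and Trp63.

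The mdx arrays differed from each other in many immune genes. Of 33 macrophage genes 26 were higher on mdx replicate 1, 8 of them over 2-fold, and 0 were over 2-fold higher on replicate 2. Of 25 lymphocyte genes 18 were higher on replicate 1 and 10 over 2-fold, and of 27 immediate early and heat shock genes 19 and 11. Over all genes 949 were over 2-fold higher on replicate 1 and 769 on replicate 2. Fast fibre genes had 0 of 22 over 2-fold apart in either direction. Among the genes furthest apart were Tmem232 with 641 and 17.95, the class II chain H2-Ea with 968 and 40.3, Glycam1, a ligand of selectin on lymph node vessels, with 399 and 25.9, and the immunoglobulin segment Ighv14-2 with 391 and 29.95 on mdx replicates 1 and 2. In wild type they gave 37.2 and 28.3, 269 and 314, 19.7 and 17.99 and 21.2 and 28.4. On replicate 2, Xdh, xanthine dehydrogenase, and Chad, a cartilage matrix protein, stood high, with 102 and 559 and 217 and 1149.9 on mdx replicates 1 and 2 against 246 and 363 and 625 and 396 in wild type. None of these 6 genes was called, and they were chosen for their spread after values were seen.

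Dystrophin deficiency is also labelled in a second pair of groups, Galgt2 transgenic mdx against Galgt2 transgenic muscle, which shares no array with the first. The transgenic arrays read 2291 and 2018 for Dmd and the transgenic mdx arrays 928 and 938, a difference of -1.20 ± 0.20 (adjusted p = 0.13). Dmd was thus not called there, and both transgenic mdx arrays lay below both transgenic arrays and above both mdx arrays. The difference between the pairs in Dmd was 1.62 ± 0.29 (adjusted p = 0.101), also not called. In that pair 10 of 18194 genes were called (0.055%), 9 higher and 1 lower, with 708 at an unadjusted p under 0.05. None of the 990 genes was called in the same direction there, and substrain labels differ in both pairs. The 682 rises had a median of 1.69 in mdx against wild type and 0.24 in the transgenic pair, and 540 of them (79.2%) were positive there, against 60.9% of all genes. The 308 falls had medians of -1.27 and -0.016, with 164 (53.2%) negative there, against 39.1% of all genes. Transgenic minus wild-type muscle had medians of 0.71 for the rises, -0.47 for the falls and -0.049 for all genes. These medians use the same wild-type arrays by which the genes were chosen, so their directions follow at least in part from that choice. The part of the starting level of the second pair in its smaller medians was not tested. The genes were chosen by the difference in the first pair, so its larger medians follow at least in part from that choice, and no test of the medians is given. Leaving out 1 array of the transgenic pair at a time gave medians of 0.13 to 0.39 for the rises and -0.08 to 0.07 for the falls.

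Some arrays of the second pair stood apart. Transgenic mdx replicate 2 had log2 ratios of 3' to 5' probe sets of 1.23 for Gapdh and 2.05 for Actb, against 0.182 to 0.48 and 0.845 to 1.46 on the other first-set arrays. Transgenic replicate 1 had a summed granulocyte intensity of 13727 against 2020.2 on its replicate, and 33914 against 24327 for macrophages. Their part in the result was not tested. Sgcd gave -1.29 ± 0.22 in mdx and -1.40 in the transgenic pair, where it read 398 and 435 without and 179 and 139.8 with the mdx label. Mx1 gave 2.88 ± 0.40 and 2.02. Lgals3 gave 4.75 ± 0.43 and 0.053, and the transgenic arrays read 2439 and 1551 and the transgenic mdx arrays 1923 and 2119. Mymx and Tnnt2 gave 4.83 ± 0.60 and 3.82 ± 0.43 in mdx against 0.17 and 0.50 in the transgenic pair. The list medians were 2.59 and 0.31 for macrophages, 1.12 and 0.080 for the cell cycle, and 0.85 and 1.02 for interferon-induced genes. Without transgenic replicate 1 the second value was 0.59, 0.23 and 1.22 in that order, and without transgenic mdx replicate 2 it was 0.28, -0.13 and 1.24. Without transgenic replicate 2 it was 0.083, -0.098 and 0.75, and without transgenic mdx replicate 1 it was 0.47, 0.35 and 0.74. A test of the difference between the pairs, over all genes, called 8 genes (0.044%), among them Lgals3 at -4.70 ± 0.61 (adjusted p = 0.0374). That count was 0 with either wild-type array left out, 142 with mdx replicate 1 left out and 113 with either PBS array left out, and the value of Lgals3 was -5.17 and -4.23 without wild type replicate 1 and 2, with no call.

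**Figure D5:**
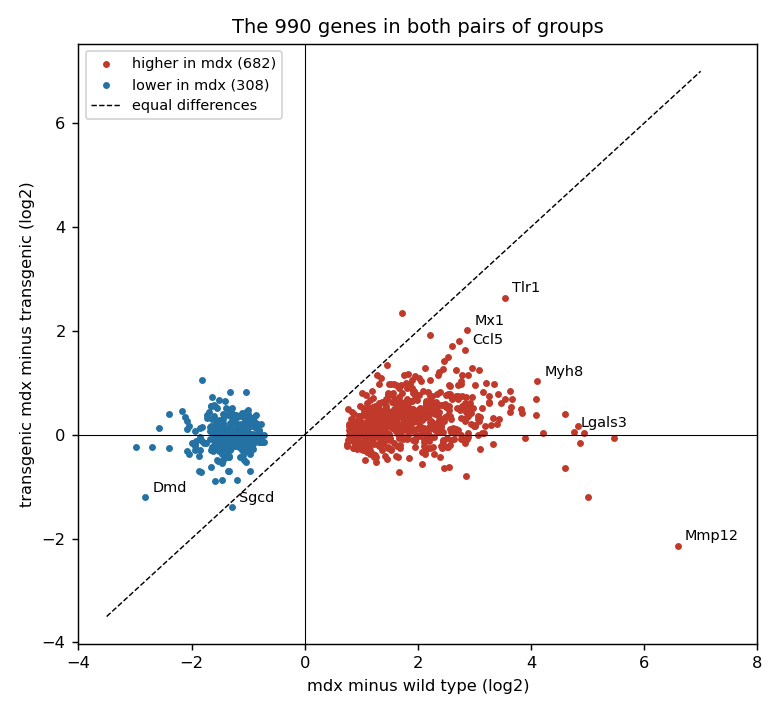
The 990 genes called in mdx against wild type, with that difference on the horizontal axis and transgenic mdx minus transgenic on the vertical axis (both log2). The genes were chosen by the horizontal value, and the vertical values have medians of 0.24 for the rises and -0.016 for the falls. Sgcd is among the few near the dashed line of equal differences.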

How the data were processed

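Expression was measured on Affymetrix arrays, and the deposited series table holds 1 intensity per probe set and array on a linear scale. Per the submitters' processing notes the authors used GCOS and RMA, whose versions are not given in the sources used here. Of 45101 probe sets, 34958 carried 1 gene symbol in the platform annotation, 932 several and 9211 none listed, and 1 probe set per gene, the brightest by mean log2, was kept (18194 genes). Log2 intensities of 12 muscle arrays in 6 groups were fitted with limma 3.58.1 in R 4.3.3 and moderated with eBayes, and p-values were adjusted by Benjamini-Hochberg over all genes. The number of arrays, 2 a group, limits the precision. The script was tested on simulated data. The members and the 44 gene lists were chosen with earlier results of these data known. Named genes were Dmd, Nnt and B4galnt2, the 15 largest rises and 15 largest falls among called genes whose arrays did not overlap, and up to 4 called members per list of largest difference, or, in a list without calls, the 2 members nearest to one. Members of the dystrophin complex, myogenic and cell type lists could also be named as not passing. Alternatives changed scaling, pseudocount (32), dim-gene filter, arrays, probe set choice, prior variance, replicate block and each array in turn. Promoters came from RefSeq (GRCm38.p6), and 14453 genes had an entry.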

Additional observations from a re-analysis of the deposited data

Results flagged for a closer look

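A test of whether the mdx difference was the same in transgenic and non-transgenic muscle called 8 genes, each given as the difference in the transgenic pair minus the difference between mdx and wild type. For Lgals3 this was -4.70 ± 0.61 (adjusted p = 0.0374), for Cd84 -3.13 ± 0.40 (adjusted p = 0.0373), for Ms4a7 -2.85 ± 0.36 (adjusted p = 0.0373) and for Tyrobp -2.82 ± 0.38 (adjusted p = 0.0429). These 4 are myeloid genes that rose in mdx against wild type, Cd84 by 3.44 ± 0.28, Ms4a7 by 3.47 ± 0.25 and Tyrobp by 3.08 ± 0.27. For AF067061 it was 2.67 ± 0.26 (adjusted p = 0.0107), for Muc15 3.21 ± 0.32 (adjusted p = 0.0107), for Tcstv1 2.47 ± 0.28 (adjusted p = 0.0198) and for Kcnj3 2.20 ± 0.29 (adjusted p = 0.0429). The first 3 of these were called in the transgenic pair, AF067061 from 186 and 158 to 757 and 815, Muc15 from 47.5 and 39.3 to 288 and 221 and Tcstv1 from 21.3 and 23.03 to 104 and 92.3. None of the 8 kept its call without wild type replicate 1 or without wild type replicate 2, where values were 2.61 and 2.74 for AF067061, -3.08 and -3.19 for Cd84, 2.06 and 2.33 for Kcnj3, -5.17 and -4.23 for Lgals3, -2.69 and -3.01 for Ms4a7, 3.31 and 3.10 for Muc15, 2.55 and 2.40 for Tcstv1, and -2.77 and -2.86 for Tyrobp. Groups of 2 arrays are too small for a test for outlying samples.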

How the results depend on the processing

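The count of genes that differed between mdx and wild type, 990, became 1620 with array medians over genes set equal, 436 in a fit of the 4 arrays alone and 582 with the replicate number as a block, and ran from 132 to 1338 with 1 array left out. The 10 genes of the transgenic pair became 0 among brighter genes, 3 with the 8 arrays of the first set, 3 with the replicate block, and 4 to 22 with 1 array left out. The 8 genes whose mdx difference itself differed between the pairs became 22 with array medians over genes set equal, 15 with medians over all probe sets equal, 18 with log2(value + 32), 3 among brighter genes, 5 with the mean over probe sets, 20 with a trended prior, 0 with the replicate block, and 0 to 142 with 1 array left out. The causes were not tested. Whether shared replicate numbers pair the samples was not tested. Deviations of same-numbered wild-type and mdx arrays correlated at -0.439, and other pairs of groups between -0.302 (mdx and transgenic) and 0.542 (wild type and transgenic). With the mdx numbers crossed, a choice made after seeing the data, as was the scaling on all probe sets, the block gave 1416, 6 and 2 genes. Of the 990 genes, 559 were called with the block and 397 in the fit of 4 arrays. Among 112 called named genes, 81 lost the call under at least 1 of 24 alternatives, most often without wild type replicate 2 (72) or 1 (67). With the 4 arrays alone 36 lost it, with the block 25 and with log2(value + 32) 18. No call among the 132 named genes reversed direction, and 10 genes not called became called. The uncalled difference of B4galnt2 changed sign without mdx replicate 2 (-0.91). Of 1056 list medians under alternatives, 98 moved by more than the replicate spread and 46 changed sign. Each fit that leaves out 1 array of a pair assumes that the lone array varies like the other groups.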

Other observations

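The share of tested genes called in mdx against wild type ran from 2.62% of 458 genes on chromosome 18 to 7.07% of 622 on chromosome 12, against 5.44% over all genes. On the X chromosome, which holds Dmd, 25 of 617 genes rose and 13 fell (6.16%). Differences between chromosomes were not tested.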
